A study of Homo sapiens with 12 samples.

Results

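The genes described here build sterols and fatty acids or regulate that synthesis, and 31 of them were taken by symbol from the 29696 genes of the expression table. They were listed by function, with earlier results of these data known, and all 31 were found. They were ordered by role into the mevalonate arm (7 genes), the arm from squalene to cholesterol (11 genes), the regulators of the pathway with 1 sterol carrier (6 genes), and the fatty acid arm (7 genes). A375 is an established human melanoma cell line. Both groups were A375 cells carrying a lentiviral hairpin from the pLKO.1-puro vector, either shALKBH5 against the m6A demethylase ALKBH5 (genotype label "ALKBH5 knockdown") or the control shCtrl (genotype label "wild type", called Scramble in the methods). Each group had 3 input libraries of poly(A) RNA, numbered 1, 2 and 3, and 3 libraries from immunoprecipitation (IP) with an antibody against m6A, a methyl mark on adenosine in mRNA. The methods describe puromycin selection in general, harvest the cells for RNA-Seq within days of infection and before that selection would end, and name no clone, the labels give no treatment beside the hairpin, and the hairpin chosen for sequencing among those against ALKBH5 is not given in the sources used here. Nothing in the labels says that the libraries of a group came from separate cultures, so p-values measure the spread between these libraries, which may be technical.

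Cells make cholesterol from acetyl-CoA. The mevalonate arm joins acetyl-CoA units and turns them into isoprenoid building blocks, and the later arm closes squalene into the first sterol ring system and trims it to cholesterol. Fatty acid synthesis starts from the same acetyl-CoA, which ACLY makes from citrate in the cytosol. The transcription factors SREBF2 and SREBF1 switch on many genes of both routes. Their precursors sit in the endoplasmic reticulum bound to SCAP, and the INSIG proteins hold this complex there when sterols are plentiful. Members of these routes are therefore often described as moving together.

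They did not move together here. Of the 30 members tested, 12 were higher in shALKBH5 than in shCtrl (40.0%, against 34.7% of all tested genes) and 10 were lower (33.3%, against 26.2% of all tested genes), at an adjusted p under 0.05 in limma. In either direction 22 of 30 members passed (73.3%), where 61.0% of all 12985 tested genes passed. The largest difference was in ACLY, the cytosolic source of acetyl-CoA, which fell from about 90.5 to 29.8 FPKM. The fatty acid synthase gene FASN, one of the steps that use this acetyl-CoA, rose from 51.5 to 73.9 FPKM. Within the sterol arm, MSMO1 and DHCR7 rose while EBP and LSS fell. Enzymes that act close to one another thus differed in direction between the same libraries. Both directions were also common among all tested genes, so such a mix is not particular to the members.

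FPKM corrects the number of sequenced fragments for transcript length and for library size, so levels can be compared between genes on this scale. Read counts were not used here, the depth of each library is unknown, and no counting interval is given. The FPKM of a library summed to 221946 to 223231 in shALKBH5 and to 212760 to 218966 in shCtrl. ALKBH5 itself was at 3.39, 3.92 and 3.12 FPKM in shALKBH5 against 19.3, 17.8 and 17.6 FPKM in shCtrl, with a log2 fold change of -2.36 (SE 0.0887, limma adjusted p = 1.28e-06). Among 17 markers of melanocytes and of other cells, SOX10 stood at 179 to 192 FPKM in every library, while PMEL, TYR and DCT, which define pigmented melanocytes, were under 1 FPKM in all 6. S100B, another marker of the lineage, was at 82.1 ± 3.03 FPKM in shALKBH5 and 32.9 ± 1.35 FPKM in shCtrl (SD, n = 3 each), and MITF, its main transcription factor, at 1.26 ± 0.332 and 0.777 ± 0.203 FPKM with overlap between the groups. The melanocyte list as a whole, with 6 of 7 genes in the table, summed to 262 to 267 FPKM and 214 to 224 FPKM. The summed fibroblast markers were 2.91 to 4.06 FPKM in shALKBH5 and 1.78 to 1.89 FPKM in shCtrl, with 3 of 4 genes under 1 FPKM in every library. The 1 keratinocyte marker in the table, KRT14, summed to 0.242 to 0.526 FPKM and 0.83 to 1.07 FPKM, and the 1 leukocyte marker in the table, CD68, was at 38.1 to 41.9 FPKM and at 14.8 to 17.2 FPKM. The part of these differences in the members' values was not tested. In such bulk RNA, fewer cells with a transcript and less of it per cell cannot be told apart.

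**Figure D1:**
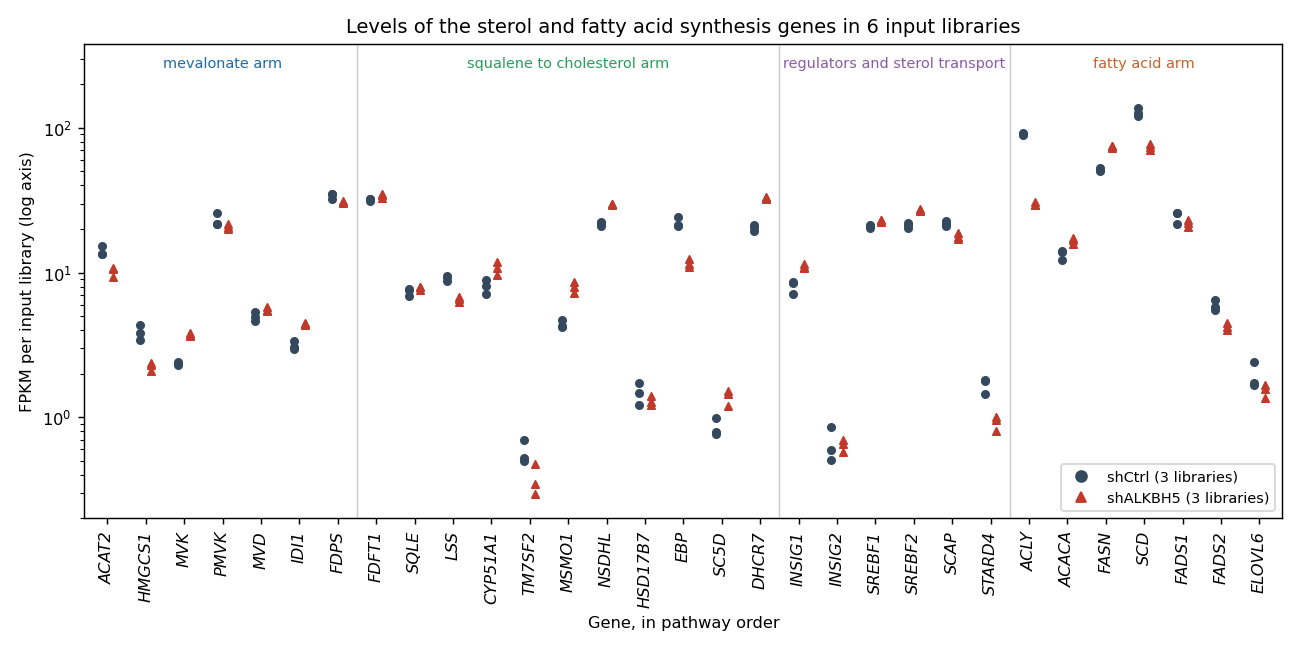
FPKM of each member (log axis) in the 3 shCtrl libraries (dark circles) and the 3 shALKBH5 libraries (red triangles), with genes in pathway order and vertical lines between the 4 arms. SCD, ACLY and FASN lie highest in shCtrl and SCD and FASN in shALKBH5, and the groups of ACLY are the farthest apart, at 89.5 to 91.8 FPKM in shCtrl and 29.3 to 30.5 FPKM in shALKBH5.

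Promoter stretches of 6 members are shown first, because the members are known as a group switched on through shared promoter elements. They were chosen after the levels were seen, as examples of genes that rose and fell, with SREBF2 as the activator itself. RefSeq windows of 300 bases on GRCh38.p14, 250 bases before and 50 after a start site, were found for 27 of the 31 members by symbol. ACAT2, FDFT1, SQLE and FASN had no window in the table used. The capitals mark CCAAT, or ATTGG where it lies on the other strand, the box bound by NF-Y, which works with SREBP at many sterol genes. They also mark the letters TCACNCCAC, the core of the sterol regulatory element. Each stretch starts 8 bases before its first match and ends 8 bases after its last, 5′ to 3′ along the gene. The first 3 belong to genes that rose, the SREBF2 stretch being the only one with the sterol element, and the last 3 to genes that fell.
SREBF2 (chr22:41832964-41833011, plus strand): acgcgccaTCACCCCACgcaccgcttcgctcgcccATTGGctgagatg
MSMO1 (chr4:165327476-165327647, plus strand): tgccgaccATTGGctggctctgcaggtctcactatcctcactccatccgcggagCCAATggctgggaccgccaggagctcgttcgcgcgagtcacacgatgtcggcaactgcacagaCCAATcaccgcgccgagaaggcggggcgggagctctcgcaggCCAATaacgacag
DHCR7 (chr11:71448429-71448495, minus strand): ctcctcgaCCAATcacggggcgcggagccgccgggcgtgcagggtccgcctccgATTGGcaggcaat
EBP (chrX:48521609-48521790, plus strand): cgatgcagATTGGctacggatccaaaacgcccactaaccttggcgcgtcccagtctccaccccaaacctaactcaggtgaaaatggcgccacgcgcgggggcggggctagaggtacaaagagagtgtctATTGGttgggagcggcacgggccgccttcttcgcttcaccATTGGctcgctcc
ACLY (chr17:41919033-41919095, minus strand): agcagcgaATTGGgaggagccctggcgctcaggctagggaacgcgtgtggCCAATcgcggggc
HMGCS1 (chr5:43313500-43313575, minus strand): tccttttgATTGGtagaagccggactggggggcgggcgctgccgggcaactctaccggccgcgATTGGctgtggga

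These stretches hold 4 CCAAT boxes in MSMO1, 3 in EBP, 2 each in DHCR7, ACLY and HMGCS1, and 1 in SREBF2. Across all members, a CCAAT box on either strand was in a window of 20 of the 27 genes, where 39.7% of all genes with a window held one. By direction, it was found in 9 of the 11 members that rose and have a window, in 8 of the 9 that fell, and in 2 of the 6 that did not pass the test. The box thus stood in front of members that rose and members that fell alike. The sterol element core TCACNCCAC was in 1 of the 27 members, SREBF2, and in 1.39% of all genes with a window. GGGCGG, the GC box bound by SP1, was in 26 of the 27 members and in 48.3% of all genes with a window. These were all 27305 genes with a window, not only genes tested for level. The members and this background are therefore unlike sets, and no enrichment is read from these shares. These letters were searched on both strands, and neighbouring matches of different motifs can share end bases. A match describes the sequence only.

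The mevalonate arm was split. ACAT2, HMGCS1 and FDPS fell, MVK and IDI1 rose, and PMVK and MVD did not pass the test. HMGCS1, the synthase that forms the precursor of mevalonate, was at 2.30, 2.37 and 2.09 FPKM in the shALKBH5 libraries, given here and below in the order of replicates 1, 2 and 3, and at 3.40, 4.34 and 3.82 FPKM in shCtrl. Its mean fell by 41.5%, with a log2 fold change of -0.74 (SE 0.103, limma adjusted p = 0.000579). All 3 shALKBH5 libraries lay below all 3 shCtrl libraries. ACAT2, which joins the first acetyl-CoA pair, was at 10.7, 10.5 and 9.30 FPKM in shALKBH5 and at 13.4, 15.1 and 13.4 FPKM in shCtrl. The log2 fold change of ACAT2 was -0.46 (SE 0.0751, limma adjusted p = 0.00139), again without overlap between the groups. ACAT2 overlaps TCP1 on the opposite strand by 615 bp, and TCP1 was at 35.4 and 35.0 FPKM in the groups.

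MVK, the kinase that first phosphorylates mevalonate, was at 3.64, 3.70 and 3.81 FPKM in shALKBH5 and at 2.39, 2.29 and 2.34 FPKM in shCtrl. Its log2 fold change was 0.65 (SE 0.0640, limma adjusted p = 0.000105), the largest rise of the arm. The spread within each group of MVK was narrow, at an SD of 0.0878 FPKM and 0.0488 FPKM. IDI1, the isomerase that makes the 2 isoprenoid building blocks interchangeable, was at 4.38, 4.31 and 4.48 FPKM in shALKBH5 and at 3.04, 3.37 and 2.97 FPKM in shCtrl (log2 fold change 0.48, SE 0.0703, limma adjusted p = 0.000781). Neither gene overlapped between the groups. MVK and its neighbour MMAB, a gene on the opposite strand of cobalamin metabolism, share 326 bp, and MMAB stood at 4.83 and 4.56 FPKM.

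The remaining enzymes of the arm differed little. FDPS, which makes farnesyl diphosphate, was at 30.8, 31.4 and 30.4 FPKM in shALKBH5 and at 34.6, 32.1 and 35.1 FPKM in shCtrl. The difference of FDPS was a log2 fold change of -0.14 (limma adjusted p = 0.0329), and it missed the threshold under 8 of the 13 other settings, each of the 3 shALKBH5 libraries left out in turn and shCtrl replicate 1 or 3 among them, with adjusted p from 0.0586 to 0.116. PMVK, the second mevalonate kinase, overlapped between the groups at 19.98 to 21.7 FPKM in shALKBH5 and 21.7 to 25.6 FPKM in shCtrl. MVD, the decarboxylase that follows, was at 5.45 to 5.82 FPKM and 4.65 to 5.32 FPKM, and its log2 fold change of 0.17 had a 95% interval of 0.01 to 0.33 (limma adjusted p = 0.0645). MVD passed without shCtrl replicate 1 (adjusted p = 0.0229).

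**Figure D2:**
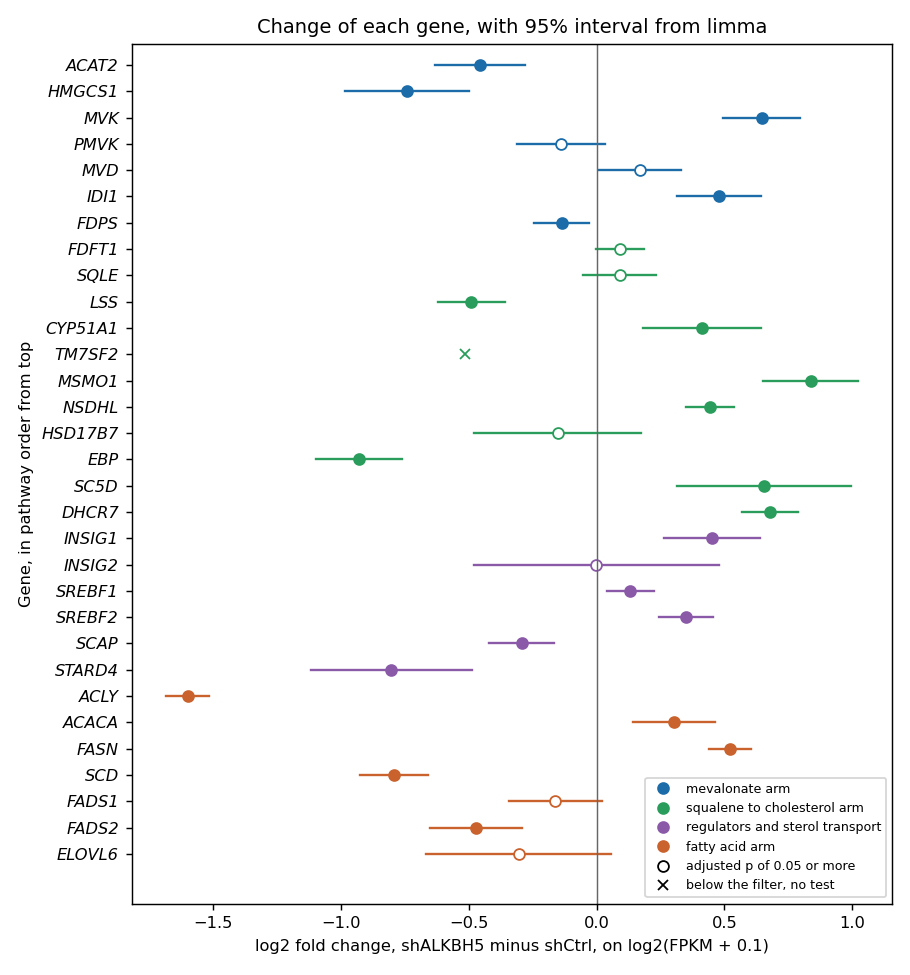
Log2 fold change of each member (shALKBH5 minus shCtrl, on log2(FPKM + 0.1)), coloured by arm, with lines for the 95% interval. Filled points passed an adjusted p of 0.05, open points did not, and the cross marks TM7SF2, which lay below the filter. Each arm has filled points on both sides of 0, and ACLY at -1.60 lies farthest from it.

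In the arm from squalene to cholesterol, 5 of the 10 tested genes rose and 2 fell, against 34.7% and 26.2% of all tested genes. FDFT1 and SQLE, the enzymes that make squalene and oxidise it, had log2 fold changes of 0.09 (95% interval -0.00 to 0.19) and 0.09 (95% interval -0.05 to 0.23), and neither passed the test. The next enzyme, lanosterol synthase LSS, was at 6.30, 6.53 and 6.72 FPKM in shALKBH5 and at 9.49, 8.75 and 9.38 FPKM in shCtrl. LSS fell with a log2 fold change of -0.49 (SE 0.0557, limma adjusted p = 0.000208), and no library of one group reached the other.

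Of the 4 genes tested for the demethylation steps that follow, MSMO1, NSDHL and CYP51A1 rose and HSD17B7 did not pass the test. MSMO1, the methylsterol oxidase, was at 7.93, 8.54 and 7.26 FPKM in shALKBH5 and at 4.27, 4.69 and 4.18 FPKM in shCtrl. This was the largest rise among the members, at 80.6% of the mean and a log2 fold change of 0.84 (SE 0.0787, limma adjusted p = 8.02e-05), and the lowest shALKBH5 library lay well above the highest shCtrl library. NSDHL, the dehydrogenase that acts with MSMO1, was at 29.9, 29.9 and 29.3 FPKM in shALKBH5 and at 22.1, 22.3 and 21.1 FPKM in shCtrl (log2 fold change 0.44, SE 0.0401, limma adjusted p = 6.62e-05). CYP51A1, the lanosterol demethylase, was at 10.7, 11.8 and 9.61 FPKM in shALKBH5 and at 7.15, 8.84 and 8.05 FPKM in shCtrl (log2 fold change 0.41, SE 0.0990, limma adjusted p = 0.00864). Its groups came closest to each other among these 3 genes but did not overlap. HSD17B7, the keto-reductase of the same steps, overlapped between the groups at 1.22 to 1.41 FPKM and 1.21 to 1.71 FPKM (log2 fold change -0.15, 95% interval -0.48 to 0.17).

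EBP, which shifts the double bond of the sterol ring, went the other way. It was at 10.9, 12.4 and 11.4 FPKM in shALKBH5 and at 24.1, 21.5 and 20.9 FPKM in shCtrl. Its mean fell by 47.8%, and its log2 fold change of -0.93 (SE 0.0719, limma adjusted p = 3.20e-05) was the most negative of the sterol genes. SC5D, the desaturase after EBP, was low in both groups, at 1.51, 1.45 and 1.19 FPKM in shALKBH5 and 0.761, 0.986 and 0.786 FPKM in shCtrl. SC5D rose, with a log2 fold change of 0.65 (SE 0.145, limma adjusted p = 0.00604). DHCR7, a last reductase of the route, was at 33.2, 32.5 and 33.0 FPKM in shALKBH5 and at 21.4, 19.4 and 20.7 FPKM in shCtrl. DHCR7 rose by 60.2% of its mean, with a log2 fold change of 0.68 (SE 0.0472, limma adjusted p = 1.88e-05), and moved from rank 13 to rank 4 among the 31 members by mean FPKM. TM7SF2, a sterol reductase, had a mean under 0.5 FPKM and was not tested, with 0.295, 0.477 and 0.345 FPKM in shALKBH5 and 0.693, 0.524 and 0.500 FPKM in shCtrl.

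Among the regulators and the sterol carrier, SREBF2, SREBF1 and INSIG1 rose, SCAP and STARD4 fell, and INSIG2 did not pass the test. SREBF2, the main activator of the sterol genes, was at 26.8, 27.4 and 27.0 FPKM in shALKBH5 and at 21.4, 20.2 and 22.1 FPKM in shCtrl. It rose with a log2 fold change of 0.35 (SE 0.0446, limma adjusted p = 0.000380), without overlap. SREBF1, which favours the fatty acid genes, was at 22.5, 23.2 and 23.0 FPKM in shALKBH5 and at 21.3, 20.4 and 21.1 FPKM in shCtrl (log2 fold change 0.13, SE 0.0396, limma adjusted p = 0.0224). This smaller difference missed the threshold under 8 of the 13 other settings, among them any 1 shALKBH5 library or shCtrl replicate 2 or 3 left out, with adjusted p from 0.0520 to 0.390. SREBF1 overlaps RAI1, a gene of transcriptional regulation on the opposite strand, by 1055 bp, and RAI1 stood at 10.1 and 9.58 FPKM.

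SCAP, the escort of both precursors, fell. Its values were 17.5, 16.9 and 18.7 FPKM in shALKBH5 and 22.7, 21.0 and 21.6 FPKM in shCtrl (log2 fold change -0.29, SE 0.0542, limma adjusted p = 0.00246). INSIG1, which retains SCAP, rose from 7.15, 8.49 and 8.63 FPKM in shCtrl to 11.5, 10.999 and 10.7 FPKM in shALKBH5 (log2 fold change 0.45, SE 0.0799, limma adjusted p = 0.00199). INSIG1 is itself a known target of SREBP. INSIG2, its relative, was under 1 FPKM in every library, at 0.577, 0.650 and 0.692 FPKM in shALKBH5 and 0.502, 0.596 and 0.861 FPKM in shCtrl, and its log2 fold change of -0.00 had a wide 95% interval of -0.48 to 0.48. STARD4, a carrier that moves cholesterol between membranes, was at 0.954, 0.805 and 0.997 FPKM in shALKBH5 and at 1.44, 1.82 and 1.79 FPKM in shCtrl. STARD4 fell by 45.3% of its mean (log2 fold change -0.80, SE 0.135, limma adjusted p = 0.00152), and its groups did not overlap.

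The fatty acid arm held both the highest levels and the largest change. ACLY was at 29.3, 29.4 and 30.5 FPKM in shALKBH5 and at 91.8, 89.5 and 90.2 FPKM in shCtrl. Its level fell by 67.1%, between means of 90.5 ± 1.17 and 29.8 ± 0.678 FPKM (SD, n = 3 each). ACLY was the 1 member with a log2 fold change beyond 1 in size, at -1.60 (SE 0.0355, 95% interval -1.68 to -1.52, limma adjusted p = 2.35e-07), where 12.3% of all tested genes had one. Among all tested genes, 305 had a more negative log2 fold change. The libraries of each group lay within a few percent of one another, far from the other group.

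SCD, the desaturase that makes monounsaturated fatty acids, was the member with the highest mean in both groups. It was at 73.9, 77.8 and 70.6 FPKM in shALKBH5 and at 121, 127 and 137 FPKM in shCtrl. SCD fell by 42.4% of its mean, with a log2 fold change of -0.79 (SE 0.0563, limma adjusted p = 2.05e-05), and the groups were well apart. FADS2, the desaturase of polyunsaturated fatty acids, was at 4.21, 4.01 and 4.50 FPKM in shALKBH5 and at 6.44, 5.55 and 5.80 FPKM in shCtrl (log2 fold change -0.47, SE 0.0770, limma adjusted p = 0.00132). FADS1, the partner of FADS2 in that route, overlapped between the groups at 20.7 to 23.0 FPKM and 21.8 to 25.97 FPKM (log2 fold change -0.16, 95% interval -0.34 to 0.02, limma adjusted p = 0.108). FADS1 passed without shCtrl replicate 1 (adjusted p = 0.00749). FADS1 and FADS2 overlap on opposite strands over 29692 bp, and FADS2 shares 4259 bp with FEN1, a flap endonuclease gene on its own strand, which was at 57.0 and 83.9 FPKM. How the authors split fragments between such genes is not given in the sources used here.

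FASN and ACACA rose and ELOVL6 did not pass the test. FASN, which builds palmitate, was at 74.3, 72.7 and 74.6 FPKM in shALKBH5 and at 52.7, 50.4 and 51.2 FPKM in shCtrl, a rise of 43.5% of the mean (log2 fold change 0.52, SE 0.0353, limma adjusted p = 1.67e-05). ACACA, the carboxylase that makes malonyl-CoA for FASN, was at 16.8, 17.2 and 15.7 FPKM in shALKBH5 and at 12.3, 13.9 and 14.2 FPKM in shCtrl (log2 fold change 0.30, SE 0.0683, limma adjusted p = 0.00656). Both genes were higher in every shALKBH5 library than in any shCtrl library. ELOVL6, which lengthens palmitate, overlapped at 1.36 to 1.67 FPKM and 1.67 to 2.41 FPKM, with a log2 fold change of -0.31 (95% interval -0.67 to 0.06).

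**Figure D3:**
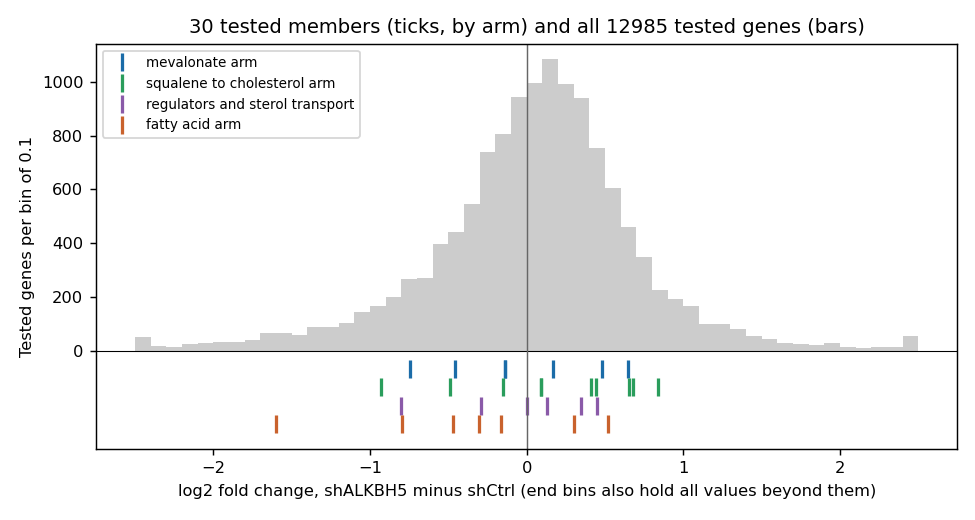
Log2 fold changes of the 30 tested members (coloured ticks, 1 row per arm) under a histogram of the log2 fold changes of all 12985 tested genes (grey bars, 0.1 wide, the end bars also holding values beyond them). The ticks lie on both sides of 0 within the bulk of the bars, with ACLY at -1.60 apart from the rest.

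Set beside all tested genes, the members had a similar centre. Their median log2 fold change was 0.04, against 0.09 for all tested genes, and it was -0.011 without shCtrl replicate 1 and 0.11 without shCtrl replicate 3. Over the members, the median size without sign was 0.45 against 0.36. The groups of libraries did not overlap in 24 of the 30 tested members (80%), against 67.0% of all tested genes. The median was 0.46 over the 12 members that rose and -0.62 over the 10 that fell. Across the 30 members, which share the same 6 libraries, the level in shCtrl and the log2 fold change had a Spearman rho of -0.20. By arm, the median log2 fold change was -0.14 in the mevalonate arm, 0.25 from squalene to cholesterol, 0.07 in the regulators and -0.31 in the fatty acid arm.

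Summed levels of an arm follow its most abundant members. Fatty acid arm FPKM summed to 222 ± 3.61 (SD, n = 3) in shALKBH5 and to 316 ± 8.95 (SD, n = 3) in shCtrl. ACLY and SCD, the abundant members that fell, and FASN, the abundant member that rose, made up most of this sum. The rest of the arm, without ACLY and SCD, summed to 118 ± 1.00 FPKM and 97.3 ± 2.05 FPKM, an order that follows from leaving out these falling members. The sum from squalene to cholesterol was 144 ± 2.50 FPKM in shALKBH5 and 128 ± 1.79 FPKM in shCtrl, and that of the mevalonate arm was 77.8 ± 0.630 FPKM and 85.2 ± 2.24 FPKM. None of these sums overlapped between the groups.

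The balance between members of 1 library does not depend on how that library was scaled. The pairs were chosen after their values were seen, and the ratios are given as a description. The ratio of ACLY to FASN was 0.395, 0.404 and 0.410 in the shALKBH5 libraries and 1.74, 1.78 and 1.76 in the shCtrl libraries. SCD was at 1.00 ± 0.0621 times the level of FASN in shALKBH5 and at 2.50 ± 0.187 times in shCtrl (SD, n = 3). EBP stood at about the level of DHCR7 in shCtrl, with ratios of 1.12, 1.11 and 1.01, and well under it in shALKBH5, with 0.329, 0.382 and 0.347. HMGCS1 exceeded MVK in each shCtrl library, at ratios of 1.42 to 1.89, and lay below it in each shALKBH5 library, at 0.550 to 0.639. LSS likewise exceeded MSMO1 in shCtrl (1.86 to 2.25) and not in shALKBH5 (0.764 to 0.926). Each of these 5 pairs joins a member that fell to one that rose, so the gap between the groups follows from the choice. SREBF2 and SREBF1 both rose, and their ratio was 1.17 to 1.19 in shALKBH5 and 0.993 to 1.05 in shCtrl, without overlap. The ratio of FADS2 to FADS1 was 0.175 to 0.217 and 0.214 to 0.295, with overlap between the groups.

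**Figure D4:**
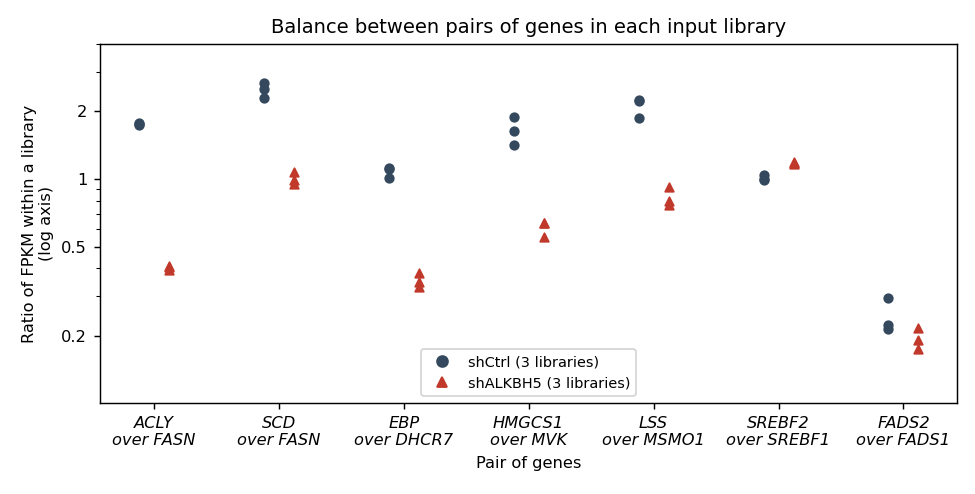
Ratio of FPKM between 2 members of the same library (log axis) for 7 pairs, with the 3 shCtrl libraries as dark circles and the 3 shALKBH5 libraries as red triangles. HMGCS1 over MVK and LSS over MSMO1 lie above 1 in shCtrl and below 1 in shALKBH5, and FADS2 over FADS1 is the pair whose groups overlap.

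Genes next to the members in the same routes also went both ways. Among 10 genes of SREBP processing and of sterol-linked protein degradation, 3 rose (30%) and 4 fell (40%), against 34.7% and 26.2% of all tested genes, with a median log2 fold change of -0.15. RNF139, a ubiquitin ligase of the endoplasmic reticulum, rose by 0.29 on the log2 scale (limma adjusted p = 0.0259). TMEM97 and the ubiquitin ligase MARCHF6 fell by 0.46 and 0.36 (limma adjusted p = 0.000246 and 0.0013). Of 10 genes of the isoprenoid branches, which use the products of IDI1 and FDPS, 7 rose (70%) and 2 fell (20%), against the same 34.7% and 26.2%, and the median was 0.38. DHDDS, a subunit of the enzyme that makes dolichol, rose by 1.29, with means of 4.38 ± 0.310 in shCtrl and 10.9 ± 0.370 FPKM in shALKBH5 (SD, n = 3 each). RABGGTB, a subunit of the Rab prenyltransferase, rose by 0.67, while PDSS2 and COQ2, which serve the making of coenzyme Q, fell by 0.47 and 0.31.

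Among 18 tested genes of fatty acid supply, activation and elongation, 7 rose and 7 fell (38.9% each, against 34.7% and 26.2% of all tested genes), with a median log2 fold change of 0.11. FADS3, the third gene of the FADS cluster, fell by 1.18, from 12.9 ± 0.907 to 5.64 ± 0.329 FPKM (SD, n = 3). ACSL4, an acyl-CoA synthetase that prefers polyunsaturated fatty acids, fell by 0.98 and ACSL3, its relative on lipid droplets, rose by 0.61. MCAT, the malonyltransferase of mitochondrial fatty acid synthesis, rose by 0.99. With FASN, MCAT and ACSL3 higher and SCD, FADS2, FADS3 and ACSL4 lower, the fatty acid genes were mixed like the sterol genes. Over the 3 neighbouring lists 17 genes rose, and 11 did without shALKBH5 replicate 1, without shALKBH5 replicate 2 or without shCtrl replicate 1. The share of all tested genes that rose with these libraries left out is not given. This drop therefore cannot be read as particular to these lists.

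The m6A data are the authors' peaks, regions where IP fragments exceeded input, in 1 list for each group and with no values per library. Differences between the lists therefore have no replicate check and are given with no test. Nearly all members carried a peak. In the shALKBH5 list 72 peaks lay in 28 members, and in the shCtrl list 65 peaks lay in 27 members. Of the 30 tested members, 27 had a peak in the shALKBH5 list (90%, against 86.0% of all tested genes) and 26 in the shCtrl list (86.7%, against 85.5%). ACLY, ACAT2 and CYP51A1 had none in either list, and INSIG1 had 1 peak, in the shALKBH5 list. ACLY, the member with the largest change in level, was thus listed without a peak in both groups.

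Exons of noncoding RNA held 19.1% of all peaks in shALKBH5 and 18.1% in shCtrl and no member peak, so the members are set beside the remaining peaks. The region named for each peak by the authors was the 3'UTR for 34 of the 72 member peaks in shALKBH5 (47.2%, against 56.2% of the remaining peaks) and 35 of 65 in shCtrl (53.8%, against 56.4%). It was the 5'UTR for 28 (38.9%, against 20.5% of the remaining peaks) and 20 (30.8%, against 20.7%). These 5'UTR peaks lay in 17 members in shALKBH5 and 16 in shCtrl, so some members counted more than once. FADS1 held several in shALKBH5, with a log10 FDR as weak as -0.847, and EBP held nearly coinciding peaks. Other exons held 3 (4.17%, against 16.5% of the remaining peaks) and 4 (6.15%, against 16.4%) of the member peaks. A 3'UTR peak was in both lists for 24 members, of which 23 were among the 30 tested (76.7%, against 64.5% of all tested genes). Some peaks run across introns on the genome, up to 29517 bp in shALKBH5 and 37404 bp in shCtrl, so their length is not a length of RNA.

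Most member peaks were in both lists. With an overlap of at least 1 bp, 57 of the 72 shALKBH5 peaks (79.2%, against 78.1% of all peaks) overlapped a shCtrl peak on the same strand, and 55 of the 65 shCtrl peaks (84.6%, against 81.3%) overlapped a shALKBH5 peak. Fold enrichment of IP over input had a median of 3.26 in shALKBH5 and 3.40 in shCtrl over the member peaks, below the 5.31 and 5.25 over all peaks. Best-matching peaks formed 51 pairs in 27 members. Enrichment was higher in the shALKBH5 list in 17 pairs, lower in 32 and equal in 2, with a median log2 ratio of -0.05. The same median of -0.05 was found over all 30961 pairs, of which 53.7% were lower in shALKBH5. Beyond a 2-fold difference were 7 member pairs (13.7%, against 17.9% of all pairs).

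**Figure D5:**
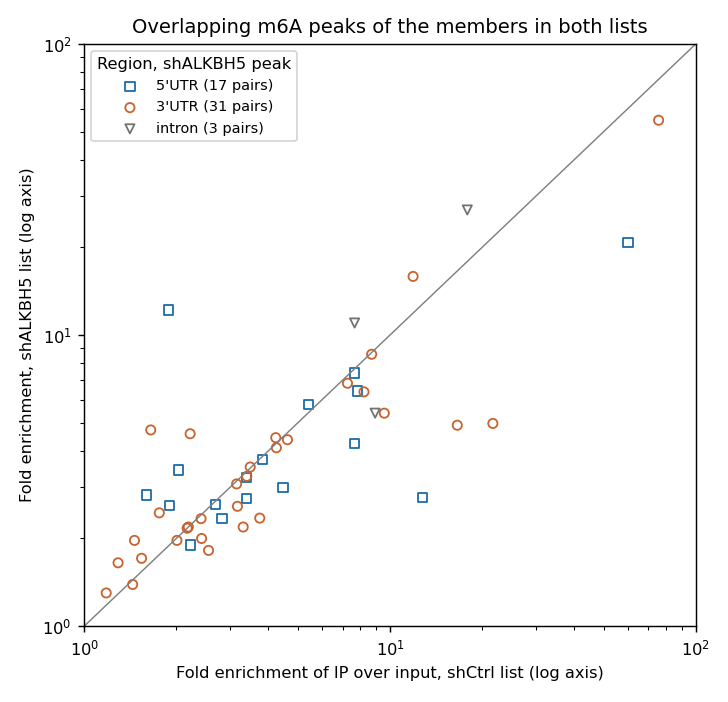
Fold enrichment of IP over input in the shCtrl list (x, log axis) and in the shALKBH5 list (y, log axis) for the 51 pairs of overlapping member peaks, with symbols for the annotated region and a line of equality. Most pairs lie near the line, and FADS2 at 75.6 and 54.7 has the highest enrichment on both axes together.

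The highest member peak of the shALKBH5 list was an exonic peak of TM7SF2 at 55.1, with no shCtrl peak of TM7SF2 over it. The highest in shCtrl, and the highest of the pairs in both lists, was in the 3'UTR of FADS2 (chromosome 11, 61866695 to 61867354 in the authors' coordinates), with an enrichment of 54.7 in shALKBH5 and 75.6 in shCtrl over the same 660 bp. MVK carried an intronic peak at 26.9 and 17.9 and a 3'UTR peak at 15.9 and 11.9, both higher in the shALKBH5 list, and a second 3'UTR peak at 1.82 and 2.55, lower in it. The 5'UTR peak of NSDHL was at 12.2 in shALKBH5 and 1.89 in shCtrl, the widest gap upwards among the pairs. These NSDHL peaks ran over 15366 and 15306 bp of genome, and their log10 FDR was -15.3 and -17.8. HSD17B7 (4.72 and 1.65) and SQLE (4.58 and 2.22) also differed upwards by more than 2-fold, both in the 3'UTR. Gaps downwards beyond 2-fold were those of IDI1 in the 5'UTR (2.76 and 12.8), TM7SF2 in the 3'UTR (4.97 and 21.7), ELOVL6 in the 3'UTR (4.90 and 16.6) and INSIG2 in the 5'UTR (20.8 and 60.0). The IDI1 peaks shared 31 bp of 91 and 510 bp, and the ELOVL6 peak in shALKBH5 had a weak log10 FDR of -0.742 in the authors' list, so that these pairs are uncertain. Over all member peaks, 8 in shALKBH5 and 5 in shCtrl had an FDR above 0.05. ELOVL6, HSD17B7, INSIG2 and TM7SF2 were also among the members with the lowest levels, at ranks 26, 28, 30 and 31 of 31 by mean FPKM in shCtrl.

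A log2 fold change of at least 0.5 in size that passed the test was found in 10 of the 30 tested members (33.3%), against 34.3% of all tested genes. Of these, ACLY had no peak and the other 9 had 3'UTR peaks in both lists. SCD, which fell, had overlapping 3'UTR peaks at 1.39 and 1.44, close to the lowest of all member peaks. FASN, which rose, had 1 3'UTR peak in each list, at 3.27 and 3.40. MSMO1, with the largest rise, had 1 3'UTR peak at 6.83 and 7.26. EBP, which fell, had a 3'UTR peak at 2.58 and 3.17, and HMGCS1 one at 3.08 and 3.15. DHCR7 had 3'UTR peaks at 3.52 and 3.49 and at 2.34 and 2.41. STARD4, which fell, had one at 1.97 and 1.46. SC5D, which rose, had 3'UTR peaks at 2.00 and 2.42 and at 2.19 in both lists, and those of MVK are given above. At the 3'UTR of these 9 genes the log2 ratio between the lists lay between -0.49 and 0.43.

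The authors also deposited a table of 6513 peaks compared between the groups. Only its positions were used, so whether each listed peak passed as differing was not checked. The table lists 6 member peaks in 6 of the 30 tested members (20%, against 32.7% of all tested genes). They lie in the 5'UTR of FDPS, in an intron of MVK, and in the 3'UTR of SCAP, ACACA, EBP and NSDHL. In the peak lists of the groups, the peaks at these positions had enrichments of 3.74 in shALKBH5 and 3.83 in shCtrl for FDPS, 26.9 and 17.9 for MVK, and 8.59 and 8.71 for SCAP. They were 1.65 and 1.29 for ACACA, 2.58 and 3.17 for EBP, and 6.38 and 8.22 for NSDHL, where a second, shorter shCtrl peak at the same position had 3.83. By enrichment of the longer match, MVK and ACACA were thus higher in the shALKBH5 list and the other 4 lower. Of these genes MVK, ACACA and NSDHL rose in level and FDPS, SCAP and EBP fell.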

How the data were processed

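The authors deposited expression as FPKM for the 6 input libraries, and a peak list for each group that gives the fold enrichment (ratio) of IP over input. The authors' log10 FDR in the peak lists was treated as a score. The aligner, annotation, peak caller and pooling of libraries are not given in the sources used here. The submitters' processing notes name the mouse build mm10, although the samples are human. All 31 members lay on the same chromosome as in GRCh38.p14 and overlapped their gene there, with median distances of 5 bp at the start and 2 bp at the end. The deposited tables also hold the authors' own fold changes, p-values and FDR between the groups, which were not used.

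Levels were tested with limma 3.58.1 in R 4.3.3 (lmFit, eBayes with a trend, two-sided) on log2(FPKM + 0.1). Genes had to average 0.5 FPKM over the 6 libraries, which left 12985, with Benjamini-Hochberg adjustment over all of them, a step tested on simulated data. A fold change on this scale understates the change of low genes. Low FPKM values showed no steps, so reads could not be recovered. Peak starts were changed to count from 1, and peaks were paired by at least 1 bp of overlap on the same strand, for members within the same gene. Other steps used Python 3.11.15, pandas 2.3.3, scipy 1.17.1 and matplotlib 3.10.9. Sequences are from RefSeq, GRCh38.p14. The members and lists were chosen with earlier results of these data known. By the rule for names, every member is named, with ALKBH5 and, from each neighbouring list, the 2 largest rises and 2 largest falls past an adjusted p of 0.05 without overlap between the groups, if the higher group averaged 1 FPKM or more. A name that this rule gives is not reported here. Overlapping genes, markers and printed promoters were added for the values they touch. Alternatives were other pseudocounts and filters, rescaling, a replicate block, eBayes without a trend, each library left out, stricter peaks and a reciprocal overlap. Pairs with both peaks of at most 1000 bp were added after the data were seen.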

Additional observations from a re-analysis of the deposited data

How the results depend on the processing

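Of the 22 members that passed the test, 20 kept call and direction under all 13 alternatives, FDPS and SREBF1 lost the call under 8 each, and no call changed direction. Counts of members higher and lower were 11 and 9 with a replicate block, 11 and 12 after rescaling, and 12 and 9 without a filter. The shares of all tested genes under these settings are not given, so these shifts cannot be read as particular to the members. The replicate numbers were not taken as pairs, since deviations of same-numbered libraries correlated at only -0.0462 to 0.0591, and with the replicate block FDPS and SREBF1 lost the call (adjusted p = 0.0780 and 0.0735 in limma). The 17 other pathway genes that rose became 10 without a filter, 11 after rescaling, and 11 to 15 with 1 library left out, namely 11 without shALKBH5 replicate 1 or 2 or shCtrl replicate 1. For these counts too, no share of all tested genes under the same setting is given. The median log2 fold change of the members was -0.025 after rescaling and -0.011 (without shCtrl replicate 1) to 0.11 (without shCtrl replicate 3), so its sign was not settled. INSIG2, which did not pass, turned to 0.0026 at a pseudocount of 0.01, and ranged from -0.15 to 0.19 with 1 library left out. Rescaling brought FADS1 and ELOVL6 past the threshold (adjusted p = 0.0228 and 0.0499). The cause of these shifts was not tested. The 3 libraries a group and the unknown depth limit all values, and peaks have no replicates. Keeping only peaks enriched 2-fold or more with an FDR up to 0.01, 24 members had a peak in each list and 41 shALKBH5 member peaks were shared, with a reciprocal overlap of 50% 47 were, and with peaks of at most 1000 bp 41 were, in place of 57.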

Other observations

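Besides the pairs named above, 4 members have pseudogenes of their own symbol in the table, 9 in all, and the highest of these, SCDP1, had a mean of 0.469 FPKM against 101 FPKM for SCD. DHCR7 overlaps AP002387 on the opposite strand by 3484 bp, and this gene was at 3.56 and 4.12 FPKM in shALKBH5 and shCtrl. FDPS overlaps RUSC1-AS1 on the opposite strand by 3804 bp, at 0.529 and 0.321 FPKM. These neighbours of DHCR7 and FDPS were far below the member itself. TM7SF2, at a mean of 0.472 FPKM, overlaps VPS51 on its own strand by 18 bp and ZNHIT2 on the opposite strand by 6 bp. VPS51 and ZNHIT2 were far above it, at means of 19.5 and 14.5 FPKM.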
